A study of Mus musculus with 36 samples.

Results

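The genes described here are C1qa, C1qb and C1qc, which encode the 3 polypeptide chains of complement component C1q. They were chosen by symbol, and all 3 were found among the 36172 gene entries of the deposited table and passed the filter on low counts in every comparison. They were measured in 36 polyA RNA-seq libraries from the hippocampus of Cx3cr1-NuTRAP mice. In these mice, tamoxifen activates a cre recombinase driven by the Cx3cr1 promoter, which turns on a green fluorescent tag on the ribosomes of microglia and of other macrophages that use this promoter. RNA bound to tagged ribosomes was recovered with an anti-GFP antibody (translating ribosome affinity purification, TRAP), and input is the whole-tissue lysate set aside before that step. All animals carried the same genotype and all were induced, so no group of these libraries is free of the tag or of tamoxifen. The young inputs came from 10 animals of 6 months induced early (5 females, 5 males). The old early inputs came from 12 animals of 22 months induced early (7 females, 5 males), and the old late inputs from 7 animals of 22 months induced late (5 females, 2 males). Each of those 7 late-induced animals also gave a TRAP library. The ages at induction are not given in the sources used here, and the pulldown was followed here in late-induced animals alone. The study asked whether the age at induction changes what the pulldown recovers and which differences with age can be detected.

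C1q is the recognition molecule of the classical complement pathway. Each C1q molecule holds equal numbers of the A, B and C chains, which wind into collagen-like stalks that end in globular heads. The heads bind immune complexes, pentraxins, dying cells and synapses, and the stalks carry the proteases C1r and C1s, which cleave C4 and C2 and so start the cascade that deposits C3 fragments. In the brain, microglia are the main source of C1q, and the protein is known for tagging synapses for removal during development and in disease models.

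The 3 genes lie side by side on the minus strand of mouse chromosome 4, in coordinates of build mm10 as the deposited table gives them. C1qb (identifier 12260) spans chr4:136880145-136886177, C1qc (identifier 12262) spans chr4:136889802-136892914 and C1qa (identifier 12259) spans chr4:136895916-136898844. The cluster covers 18.7 kb and holds no other gene of the table, with gaps of 3624 bp between C1qb and C1qc and 3001 bp between C1qc and C1qa. Each gene has 3 exons in the GENCODE annotation of this build, and the transcripts used for length were 1088 nt for C1qb, 1203 nt for C1qc and 1040 nt for C1qa.

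The promoter sequences of C1qb and C1qc are shown because the genes are neighbours that moved together in the results that follow. They are RefSeq sequences of GRCm38.p6, read on the minus strand from 5′ to 3′ and ending toward the gene. C1qb is shown for the 250 bases before its start, chr4:136886201-136886450. C1qc is shown for the farther 99 bases of that window, chr4:136893066-136893164, since the nearer 151 bases lie within an annotated exon. Capitals mark the letters GAGGAA, or TTCCTC where the match is on the other strand, which is a motif of the myeloid factor PU.1.
C1qb promoter: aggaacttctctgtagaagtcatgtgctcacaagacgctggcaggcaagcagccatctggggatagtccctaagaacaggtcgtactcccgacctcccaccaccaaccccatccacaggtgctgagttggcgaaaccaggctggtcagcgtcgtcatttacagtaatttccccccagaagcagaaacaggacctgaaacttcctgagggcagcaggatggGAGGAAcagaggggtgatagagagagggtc
C1qc promoter: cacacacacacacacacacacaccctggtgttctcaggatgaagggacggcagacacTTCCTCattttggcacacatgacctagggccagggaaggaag

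Both promoters held the PU.1 letters, at 25 to 30 bases before the start of C1qb and at 188 to 193 bases before the start of C1qc. Distances are counted from the RefSeq start of each gene. The GENCODE transcript of C1qc starts farther upstream, at chr4:136893065, so the match lies closer to that start. The same 6 letters stood on either strand in 23.25% of 32851 RefSeq promoter windows of 250 bases, so the match is a description of the sequence and not of binding. TGCTGA, a recognition site of Maf factors, was found in C1qb, 126 to 131 bases before its start, and in 16.08% of all promoters. The search covered all 250 bases of both windows, those of C1qc that are not printed included. Neither window held the letters of the composite motif of ETS and IRF factors, the TATA box TATAAA or the E-box CACGTG, which stood in 2.301%, 12.37% and 6.021% of all such windows. The composite and the PU.1 letters can overlap. RefSeq promoters matched 2 of the 3 genes, and C1qa is named only.

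The libraries held 12.9 to 20.4 M estimated counts each, and the 3 C1q genes were well covered in each library. Together they held 0.0148% ± 0.00124 of the counts in young inputs (SD, n = 10), 0.0242% ± 0.00288 in old early inputs (SD, n = 12), 0.0300% ± 0.00698 in old late inputs (SD, n = 7) and 0.532% ± 0.123 in TRAP (SD, n = 7). Over the 153 library pairs within groups, the chi-square statistic divided by its degrees of freedom was at least 3.58, so no pair was as alike as repeated counting of 1 library would be. Levels are given as CPM, counts relative to the library's total, scaled for composition across the 36 libraries. Nothing in the labels tells whether any of these animals were littermates.

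All 3 C1q genes rose with age in the input of early-induced animals, by 1.52 to 1.65-fold in the fit. C1qa, the A chain, had 44.3 CPM in the lowest of 10 young inputs, 57.9 in the highest and a median of 50.6, while the 12 old early inputs spanned 61.5 to 102.7 CPM with a median of 84.2. C1qb, the B chain, spanned 44.5 to 64.4 CPM in young inputs (median 52.9) and from 70.5 to 100.3 CPM in the old early inputs (median 89.9). C1qc, the C chain, spanned 38.5 to 50.3 CPM in young inputs (median 43.9) and from 51.05 to 81.0 CPM in the old early inputs (median 68.2). For each chain every old early input lay above every young input. The lowest old early library was a male for each chain, replicate 6 for C1qa and C1qc and replicate 7 for C1qb.

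In edgeR's quasi-likelihood test with Benjamini-Hochberg adjustment over 14948 genes, the log2 fold change of old early against young was 0.72 ± 0.083 (SE) for C1qa, with an adjusted p of 2.05e-07. It was 0.71 ± 0.074 for C1qb (edgeR adjusted p = 4.69e-08) and 0.61 ± 0.077 for C1qc (edgeR adjusted p = 1.14e-06). All 3 were thus called, where 25.6% of all genes tested were called. Group means differed 1.66-fold for C1qa, 1.65-fold for C1qb and 1.53-fold for C1qc. In bulk tissue, fewer cells of a type and less RNA per cell cannot be told apart, so a higher level does not say whether cells were more numerous or each held more C1q RNA.

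**Figure D1:**
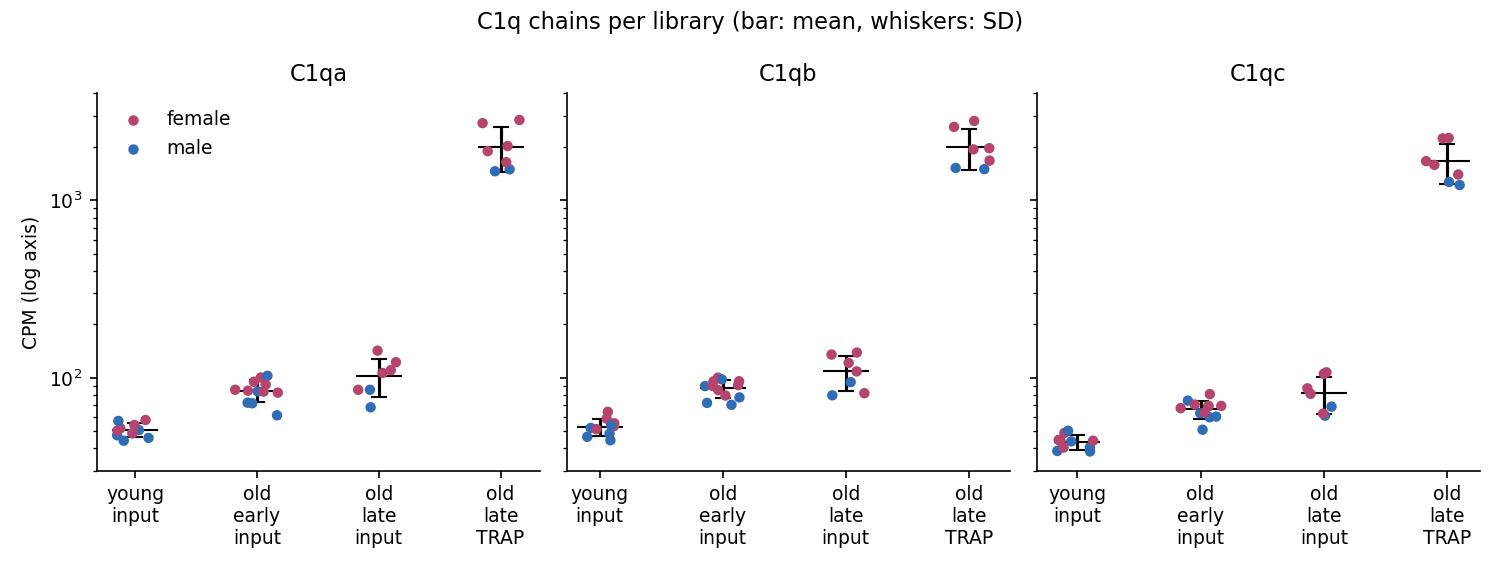
CPM of C1qa, C1qb and C1qc (log axis) in each library, by group, with females in red and males in blue, group means as bars and SD as whiskers. All old inputs lie above all young inputs for each chain, and the 7 TRAP libraries lie between 1220 and 2838 CPM.

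The old late inputs, which differ from the young inputs in both age and induction, stood at about 2-fold the level of the same 10 young inputs. C1qa ranged from 68.2 to 142.3 CPM with a median of 106.5, C1qb from 79.7 to 138.9 CPM with a median of 108.7, and C1qc from 61.2 to 107.4 CPM with a median of 81.3. No old late input overlapped a young input for any chain. The log2 fold change was 0.97 ± 0.095 for C1qa (edgeR adjusted p = 7.65e-09), 1.00 ± 0.084 for C1qb (edgeR adjusted p = 7.06e-10) and 0.88 ± 0.088 for C1qc (edgeR adjusted p = 1.18e-08). All 3 were called, beside 34.5% of all genes in this comparison. The 2 comparisons with young share their controls, so their agreement is not counted as a result.

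Between the 2 old groups, which differ in induction age, no chain passed the test. The log2 fold change of old late against old early was 0.25 for C1qa (95% interval 0.07 to 0.43, edgeR adjusted p = 0.268), 0.29 for C1qb (0.12 to 0.45, edgeR adjusted p = 0.179) and 0.27 for C1qc (0.10 to 0.44, edgeR adjusted p = 0.199). The unadjusted p-values of edgeR were 0.00875, 0.00111 and 0.00241, and 5 of 14948 genes passed the adjusted threshold, or 0.0334%. Ranges overlapped, although 4 of the 7 old late inputs lay above the highest old early input for each chain. Those 4 were females 3 to 6 of the group for C1qa, C1qb and C1qc alike, and the remaining 3 were both males and female 7. C1qa passed with females only, at 0.36 (edgeR adjusted p = 0.0418), and C1qb passed with DESeq2, at 0.29 (DESeq2 adjusted p = 0.0494), and in edgeR without old early replicate 5, at 0.32 (edgeR adjusted p = 0.0395).

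The old late inputs were also more spread than the other inputs. The coefficient of variation of C1qa was 8.98% in young inputs, 14.2% in old early inputs and 24.4% in old late inputs, and that of C1qb was 11.1%, 11.6% and 22.3%. C1qc gave 9.19%, 11.5% and 23.3%. The difference in spread was not tested.

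Mean C1q levels were lower in males than in females in each input group, but no chain passed the test over all inputs. C1qa averaged 52.7 ± 3.599 CPM in young females and 49.1 ± 5.12 CPM in young males (SD, n = 5 each). It averaged 89.1 ± 6.79 CPM in 7 old early females against 78.5 ± 15.7 CPM in 5 males, and 113.5 ± 20.9 CPM in 5 old late females against 77.0 ± 12.3 CPM in 2 males. Female and male ranges of C1qa overlapped in all 3 groups, in the old late inputs only at the boundary, where female 7 and male 1 both had 85.7 CPM. The log2 difference of male against female was -0.23 ± 0.074 for C1qa (edgeR adjusted p = 0.272), -0.23 ± 0.066 for C1qb (edgeR adjusted p = 0.214) and -0.20 ± 0.068 for C1qc (edgeR adjusted p = 0.317). Of all genes 0.174% passed this test. The change with age did not differ detectably between the sexes. The interaction in the 22 early-induced inputs was -0.08 ± 0.133 for C1qa (edgeR adjusted p = 0.816), 0.06 ± 0.114 for C1qb (edgeR adjusted p = 0.846) and -0.11 ± 0.115 for C1qc (edgeR adjusted p = 0.684). The 95% intervals reached from -0.35 to 0.20, from -0.18 to 0.29 and from -0.34 to 0.13. In this comparison 0.0% of genes passed edgeR's adjusted threshold, with 2301 of 14953 at an unadjusted p under 0.05, and DESeq2 called 21.

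The pulldown enriched the 3 C1q genes about 20-fold over the input of the same animals. C1qa rose from a range of 68.2 to 142.3 CPM in input to 1459 to 2838 CPM in TRAP, with a TRAP median of 1892. C1qb reached 1499 to 2802 CPM in TRAP (median 1937), and C1qc 1220 to 2247 CPM (median 1584). The 7 TRAP and 7 input libraries did not overlap for any chain. In both fractions females 3 and 5 had the highest level of every chain, and the 2 males were the lowest TRAP libraries for every chain.

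The log2 fold change of TRAP against input was 4.27 ± 0.139 for C1qa (edgeR adjusted p = 8.01e-14), 4.19 ± 0.137 for C1qb (edgeR adjusted p = 8.50e-14) and 4.32 ± 0.138 for C1qc (edgeR adjusted p = 6.03e-14). All 3 were called, in a comparison in which 59.2% of 14596 genes were called. Cx3cr1, the gene whose promoter drives the cre, stood at 4.09 ± 0.117 (edgeR adjusted p = 1.65e-14).

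Ratios within each animal gave the same size with little spread. The TRAP to input ratio of C1qa averaged 19.5 ± 1.89 (SD, n = 7), from 17.1 in female 6 to 22.2 in female 3. That of C1qb averaged 18.4 ± 1.80, from 15.9 in female 6 to 20.4 in female 7, and that of C1qc averaged 20.2 ± 1.48, from 18.1 in female 6 to 22.2 in female 7. In 7 of 7 animals each ratio was above 1, and the exact two-sided sign-flip permutation test gave p = 0.0156 for each chain (adjusted p over the 3 chains = 0.0156), the smallest that 7 animals allow. Over the same animals Cx3cr1 averaged 17.3 ± 2.80, Csf1r, the receptor on which microglia depend for survival, averaged 20.2 ± 2.71, and the geometric mean of a list of 25 microglial genes averaged 18.5 ± 1.90.

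**Figure D2:**
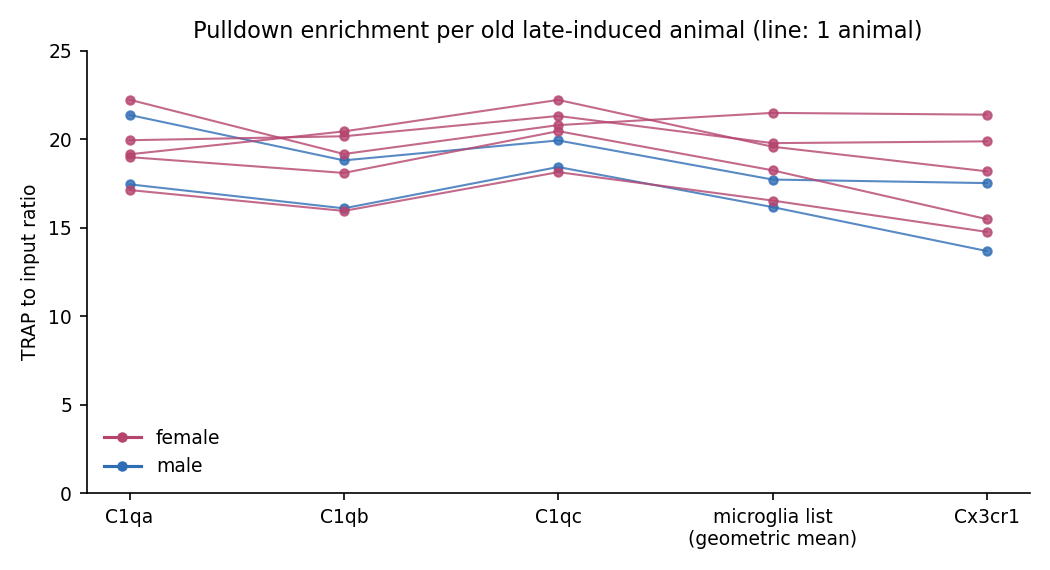
TRAP to input ratio of CPM (linear axis from 0) for each C1q chain, the geometric mean of the 25-gene microglia list and Cx3cr1, with 1 line per old late-induced animal, females in red and males in blue. Ratios of the chains lie between 15.9 and 22.2, and the step from C1qb up to C1qc is present in all 7 animals.

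Relative to the microglia list, the enrichment of the chains did not pass the test. The log2 difference was 0.07 for C1qa, higher in 6 of 7 animals, and 0.13 for C1qc, higher in 6 of 7 animals (exact sign-flip permutation test, adjusted p = 0.0703 for both). It was -0.01 for C1qb (exact sign-flip permutation test, adjusted p = 0.797). With the list reduced to its first 5 genes, the C1qa difference of 0.13 and the C1qc difference of 0.18 passed (exact sign-flip permutation test, adjusted p = 0.0469 for both), and that of C1qb changed sign to 0.04. Against the median of each gene's own ratio, an alternative added after seeing the data, the differences were 0.01 for C1qa, -0.07 for C1qb and 0.07 for C1qc, and none passed (exact sign-flip permutation test, adjusted p = 0.891, 0.211 and 0.211).

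Other cell types in the pulldown are given by their marker lists. Of 7 border macrophage genes, which mark macrophages of the brain's borders that also use the Cx3cr1 promoter, 7 were higher in TRAP with a median log2 fold change of 3.81. Their summed level was 104 to 238 CPM in TRAP and 7.52 to 18.2 CPM in the old late inputs, against 14222 to 22487 CPM and 785 to 1109 CPM for the 25 microglial genes. Of all genes 28.8% were lower and 30.4% higher in TRAP. Of 6 neuronal genes 2 were lower in TRAP, which is near that share, and none higher. The summed level of the neuronal genes remained at 4622 to 5967 CPM. All 6 oligodendrocyte genes and all 4 red blood cell genes were lower, while all 4 endothelial genes were higher with a median of 1.34. Their part in the C1q ratios was not tested.

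Set per kilobase of transcript, the C1q genes were among the most abundant RNAs of the pulldown. C1qa ranked 6, C1qb ranked 8 and C1qc ranked 10 among 16985 genes with a length and a level above 0, at mean levels of 1933, 1838 and 1379 CPM per kb. In young input the same genes ranked 1527, 1544 and 2114 of 17250, at 48.9, 48.6 and 36.1 CPM per kb. Ranks were 860, 880 and 1328 in old early input and 666, 656 and 1063 in old late input. C1qa and C1qb did not differ beyond their spread in the 3 input groups. In TRAP, C1qa made up 36.9% to 38.2% of the summed C1q level per kb and C1qb 34.7% to 36.3%, with no overlap. C1qc was the lowest of the 3 per kb in 36 of 36 libraries. Of the summed level per kb, C1qc made up 23.6% to 28.6% in a library, and each of C1qa and C1qb made up 33.4% to 40.2%. Comparing the levels of different genes assumes that the chosen transcript lengths hold and that coverage along the transcript is alike.

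The balance of the chains, as ratios of counts within a library, moved little between the input groups. The C1qa to C1qb ratio was 0.968 ± 0.102 in young inputs (SD, n = 10), 0.971 ± 0.0706 in old early inputs (SD, n = 12) and 0.947 ± 0.0705 in old late inputs (SD, n = 7). The C1qa to C1qc ratio was 1.17 ± 0.0576, 1.27 ± 0.0852 and 1.26 ± 0.0968 in the same order, and the C1qb to C1qc ratio was 1.22 ± 0.117, 1.31 ± 0.0945 and 1.33 ± 0.0453. All ranges overlapped between groups.

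None of the 9 tests of chain ratios between input groups passed after adjustment. The log2 C1qa to C1qc ratio was 0.11 higher in old early than in young inputs (two-sided permutation test with 100000 resamples, p = 0.00722, adjusted p = 0.0650). It passed without any 1 of 4 libraries, with adjusted permutation p-values down to 0.0122 without young replicate 9, whose ratio of 1.32 stood above the 1.11 to 1.20 of the other young inputs. Old late replicate 2, 1 of the 4, is outside this comparison. Leaving it out kept the difference at 0.11 and changed only the adjustment (permutation test, adjusted p = 0.0461). The C1qb to C1qc ratio was 0.12 higher in old late than in young inputs (exact two-sided permutation test, p = 0.0386, adjusted p = 0.126). With females only it was 0.05 (exact permutation test, adjusted p = 0.809), and the same ratio in old early against young fell from 0.10 to 0.03 (exact permutation test, adjusted p = 0.839). The 2 comparisons share the young inputs.

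In the pulldown the C1qb to C1qc ratio was lower than in the input of the same animal in 7 of 7 animals. It fell from 1.33 ± 0.0453 in input to 1.21 ± 0.0293 in TRAP (SD, n = 7 each), a mean log2 difference of -0.14 or 0.909-fold (exact two-sided sign-flip permutation test, p = 0.0156, adjusted p over 3 ratios = 0.0469). The adjusted p of this test was 0.0938 without any 1 animal, with differences from -0.15 to -0.13. That value also reflects the adjustment over 3 ratios. With 6 animals the chains' TRAP to input ratios reached 0.0313 (exact sign-flip permutation test, adjusted p). The C1qa to C1qb ratio was 0.08 higher on the log2 scale in TRAP, in 5 of 7 animals (exact sign-flip permutation test, adjusted p = 0.164), and the C1qa to C1qc ratio was 0.05 lower in TRAP, at -0.05 (exact sign-flip permutation test, adjusted p = 0.297).

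**Figure D3:**
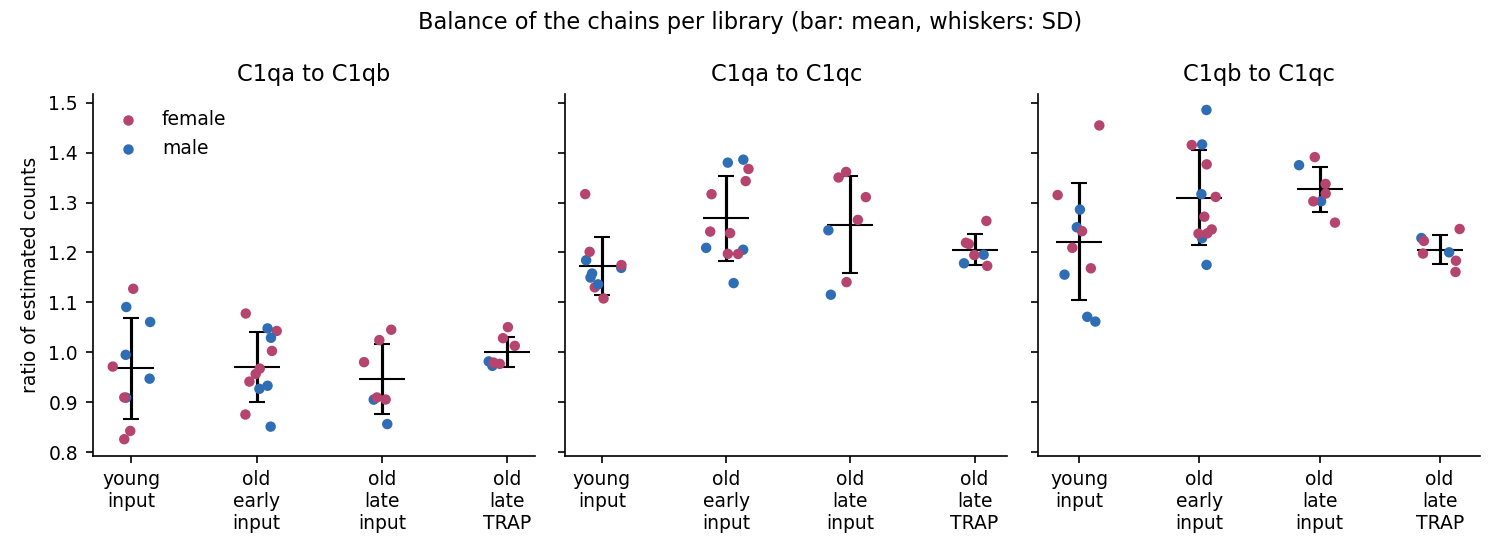
Ratios of estimated counts between pairs of C1q chains in each library (linear axis), by group, with females in red, males in blue, group means as bars and SD as whiskers. Input ranges overlap for every pair, and the C1qb to C1qc ratio of the 7 TRAP libraries lies below that of the 7 old late inputs.

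Other microglial genes moved in the inputs as C1q did. Of the 25 microglial genes, 24 were called higher in old early against young with a median log2 fold change of 0.47, and 25 of 25 in old late against young with a median of 0.68, where the median over all genes was 0.01 in both. Of all genes 13% and 17% were called higher in these comparisons. None of the 25 microglial genes was called between the old groups by edgeR, where their median was 0.20. Cx3cr1 itself changed by 0.47 ± 0.057 in old early (edgeR adjusted p = 4.20e-07) and by 0.68 ± 0.064 in old late inputs (edgeR adjusted p = 5.10e-09).

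The chains changed by more than most of these genes. In old early against young, 18 of the 25 microglial genes had a smaller log2 fold change than C1qa and C1qb, and 15 of 25 a smaller one than C1qc. In old late against young the counts were 17 for C1qa, 18 for C1qb and 17 for C1qc. The genes above all 3 chains in both comparisons were Tyrobp, the signalling adaptor of Trem2, Trem2 itself, Irf8, Cd68, Fcer1g, Ctss and Fcgr3.

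Within a library, log2 CPM of C1qa minus the mean log2 CPM of the microglia list was 1.84 ± 0.076 in young inputs (SD, n = 10), 2.04 ± 0.137 in old early inputs (SD, n = 12) and 2.11 ± 0.181 in old late inputs (SD, n = 7). C1qb stood at 1.89 ± 0.156, 2.09 ± 0.119 and 2.20 ± 0.127, and C1qc at 1.61 ± 0.086, 1.70 ± 0.114 and 1.79 ± 0.138. The groups overlapped, with old libraries higher on average for each chain.

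In old early against young this relative level was 0.20 higher for C1qa (two-sided permutation test, adjusted p over 9 tests = 0.00401) and 0.20 higher for C1qb (permutation test, adjusted p = 0.00841), and 0.09 for C1qc did not pass (permutation test, adjusted p = 0.0720). In old late against young it was 0.27 higher for C1qa, 0.30 for C1qb and 0.18 for C1qc (exact permutation test, adjusted p = 0.00401, 0.00401 and 0.00852). Between the old groups the differences of 0.07, 0.11 and 0.09 did not pass (exact permutation test, adjusted p = 0.348, 0.105 and 0.180). The choice of reference decides these calls. Against the median level of the list in each library, which follows the genes of middle abundance, the differences in old early against young were -0.06 for C1qa, -0.07 for C1qb and -0.17 for C1qc, the last past the threshold (permutation test, adjusted p = 0.0244). In old late against young they were 0.02, 0.05 and -0.08, none past it. Against the median of each gene's own change, an alternative added after these values were seen, they were 0.24, 0.23 and 0.13 in old early (permutation test, adjusted p = 0.00162, 0.00272 and 0.0172) and 0.31, 0.34 and 0.21 in old late inputs (exact permutation test, adjusted p = 0.00162, 0.00216 and 0.00324).

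**Figure D4:**
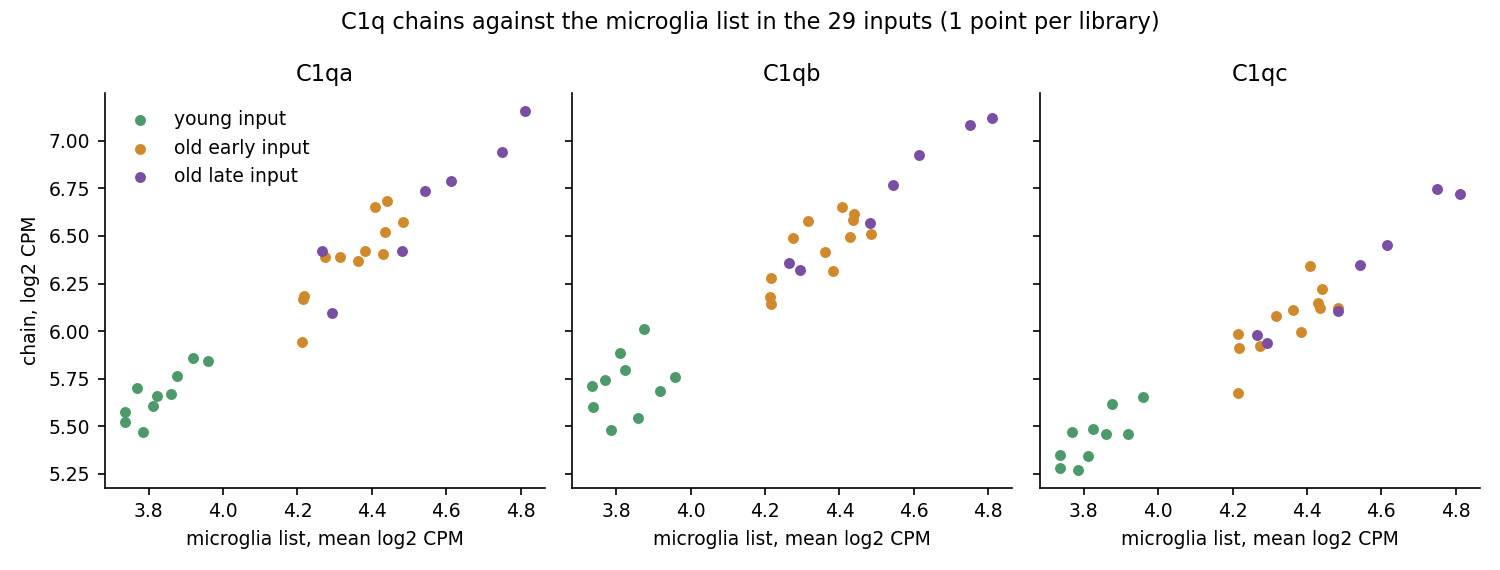
Log2 CPM of each C1q chain against the mean log2 CPM of the 25-gene microglia list, with 1 point for each of the 29 inputs, coloured by group. Young inputs lie at the low end of both axes and old late inputs reach the high end, with list means of 3.74 to 3.96 in young and 4.26 to 4.81 in old late inputs.

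Markers of some other cells also moved in the inputs. Oligodendrocyte genes were called higher in 5 of 6 cases in old early and 6 of 6 in old late against young, and red blood cell genes in 2 of 4 and 4 of 4. Of all genes 13% and 17% were called higher in these comparisons. Summed red blood cell RNA ranged from 143 to 346 CPM in young, 130 to 2273 CPM in old early and 274 to 719 CPM in old late inputs. None of 7 border macrophage genes was called in old early against young by edgeR, beside 25.6% of all genes. In old late against young 1 border macrophage gene was higher and 1 lower, beside 34.5% of all genes called. Their summed level ranged from 9.06 to 13.6 CPM in young, 6.58 to 16.98 CPM in old early and 7.52 to 18.2 CPM in old late inputs. The part of these cells in the C1q differences was not tested.

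The 3 chains varied together between animals of a group. Over the 29 inputs, each taken as its deviation from its group mean, Pearson's r was 0.92 between C1qa and C1qc, 0.87 between C1qb and C1qc and 0.85 between C1qa and C1qb. Among the genes most like the mean of the chains were Ctss, a lysosomal protease, at 0.90, Mpeg1, a pore-forming protein of macrophages, at 0.89, Lyz2, a lysozyme, at 0.87 and Aif1, the microglial antigen Iba1, at 0.85. Tyrobp stood at 0.80, the lysosomal glycoprotein gene Cd68 at 0.78 and Gfap, the intermediate filament of astrocytes, at 0.78. Cx3cr1 ranked 151 of 12951 genes at 0.53. The microglia list had a median r of 0.54 with a range of -0.04 to 0.90, and all genes had a median of -0.02. These values describe 29 libraries that share their depth and tissue composition, and carry no test.

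The partners of C1q were taken from lists of pathway genes. Of 10 genes for the proteases and early components of the classical pathway, 8 were tested in the inputs, and 2 were called higher in old early against young while 4 were higher and 2 lower in old late against young. Of all genes 25.6% and 34.5% were called in these comparisons, so the 2 of 8 in old early inputs are near the background. C4b, the complement component that C1s cleaves, ranged from 37.8 to 59.3 CPM in young and from 132 to 270 CPM in old early inputs, with a log2 fold change of 2.04 ± 0.120 (edgeR adjusted p = 3.40e-13). C3 rose by 1.75 ± 0.239 (edgeR adjusted p = 3.57e-06) on the log2 scale, from 2.08 ± 0.583 CPM (SD, n = 10) to 7.03 ± 2.00 CPM (SD, n = 12). Both fold changes are larger than those of the 3 C1q chains, a difference that was not tested. Reads of C4b and its near-identical copy C4a, and of C1ra and C1s1 and their copies, may have been divided by the counting, so these values are uncertain.

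The proteases that sit on C1q were scarce beside it. C1ra had 1.83 ± 0.480 CPM in young, 2.23 ± 0.791 in old early and 2.59 ± 0.551 in old late inputs, and C1s1 had 0.855 ± 0.510, 1.06 ± 0.380 and 1.47 ± 0.328 CPM (SD, n = 10, 12 and 7). Both were called higher in old late against young, C1ra by 0.57 ± 0.201 (edgeR adjusted p = 0.0270) and C1s1 by 0.76 ± 0.292 (edgeR adjusted p = 0.0418). With females only neither passed, at 0.45 (edgeR adjusted p = 0.258) and 0.55 (edgeR adjusted p = 0.311). The pulldown did not enrich them as it did C1q. C1s1 was lower in TRAP by -1.22 ± 0.364 on the log2 scale (edgeR adjusted p = 0.00874), and C1ra stood at 3.10 ± 1.11 CPM in TRAP (SD, n = 7), not called. C3 was enriched by 2.03 ± 0.364 (edgeR adjusted p = 0.000143), and C4b stood at 258 ± 88.0 CPM in TRAP beside 246 ± 79.4 CPM in the old late inputs, not called.

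Receptors for the products of the cascade moved in the same directions as C1q. Of 5 receptor genes tested, 5 were enriched in TRAP, from 4.09 for Itgam to 4.34 for C5ar1, and 4 were called higher in each old group against young. Of all genes 30.4% were higher in TRAP, and 13% and 17% were called higher in old early and old late inputs. In old early inputs the call of Itgam, at 0.19 (edgeR adjusted p = 0.0355), was lost without the filter on low counts (edgeR adjusted p = 0.0510). The Itgam call was also lost with females only (edgeR adjusted p = 0.240). Leaving out 1 library lost it in 9 of 29 cases (edgeR adjusted p up to 0.105). Itgax, which encodes an integrin chain of complement receptor 4, changed by 3.58 ± 0.394 in old early (edgeR adjusted p = 1.07e-07) from at most 0.377 CPM in young inputs. Itgb2, the integrin chain shared by complement receptors 3 and 4, changed by 0.72 ± 0.129 (edgeR adjusted p = 0.000126), the same size as C1qa and C1qb, and C3ar1, the receptor of C3a, by 0.96 ± 0.163 (edgeR adjusted p = 6.37e-05).

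Proteins that restrain complement went mostly the other way in the pulldown. Of 10 regulators tested, 7 were lower in TRAP and 2 higher, where 28.8% of all genes were lower and 30.4% higher. Serping1, the inhibitor that removes C1r and C1s from C1q, was lower by -0.86 ± 0.250 (edgeR adjusted p = 0.00738). With age 1 regulator was called higher and 1 lower of 11 in old early inputs, beside 25.6% of all genes called. The regulator called higher was Clu, a chaperone in plasma that binds terminal components, at 0.18 ± 0.033 (edgeR adjusted p = 0.000194). The regulator called lower was Csmd1 at -0.32 ± 0.090 (edgeR adjusted p = 0.00884). With females only the Clu call was lost at 0.13 (edgeR adjusted p = 0.0549) and the Csmd1 call at -0.11 (edgeR adjusted p = 0.593). Of the terminal and alternative pathway 3 of 10 genes passed the filter, and Cfp, properdin, fell by 0.86 on the log2 scale in old early inputs (edgeR adjusted p = 1.09e-05).

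Among 8 genes for proteins reported to bind C1q, 5 were higher in TRAP and 1 lower, and of the 5 the mitochondrial protein gene C1qbp, at 0.17 (edgeR adjusted p = 0.0159), was not called when libraries were scaled by upper quartile (0.03) or by size alone (0.07). The 6 calls among 8 genes stand beside 59.2% of all genes called. Lair1, an inhibitory receptor for collagens and C1q, was the one closest to C1q, enriched by 4.03 ± 0.162 (edgeR adjusted p = 1.15e-12) and higher with age by 0.56 ± 0.118 in old early inputs (edgeR adjusted p = 0.000693). Its level was 5.67 ± 1.02 CPM in young (SD, n = 10), 8.42 ± 1.23 CPM in old early (SD, n = 12) and 136 ± 42.9 CPM in TRAP (SD, n = 7). Megf10, a phagocytic receptor of astrocytes, was lower in TRAP by -0.80 ± 0.068 (edgeR adjusted p = 2.69e-08).

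Other genes that encode a C1q domain, many of them secreted, form a family of their own. Of 28 family members 20 were tested in the inputs. In old early against young none was called higher and 1 lower by edgeR, beside 25.6% of all genes called. The family's median log2 fold change was 0.02. The 1 called was C1qtnf4 at -0.19 ± 0.050 (edgeR adjusted p = 0.00414). In old late against young 1 was called higher and 2 lower of 20, with a median of -0.01, beside 34.5% of all genes called. Cbln1, a secreted synaptic organizer, was the 1 higher, at 0.82 ± 0.216 (edgeR adjusted p = 0.00393), and was not called with females only, at 0.85 (edgeR adjusted p = 0.0578). Caprin2 stood at -0.38 ± 0.127 (edgeR adjusted p = 0.0213), with the call lost without old late replicate 2 at -0.33 (edgeR adjusted p = 0.0652) and with females only at -0.39 (edgeR adjusted p = 0.0853), and C1ql3 at -0.21 ± 0.055 (edgeR adjusted p = 0.00341). In the pulldown 11 of 18 were lower and 2 higher, with a median of -0.52, where 28.8% of all genes were lower and 30.4% higher. Among them C1ql1, another such organizer, was lower by -1.26 ± 0.173 (edgeR adjusted p = 8.94e-06), Cbln1 by -0.99 ± 0.188 (edgeR adjusted p = 0.000259), and Mmrn2, an endothelial matrix protein, was higher by 1.27 ± 0.234 (edgeR adjusted p = 0.000189).

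**Figure D5:**
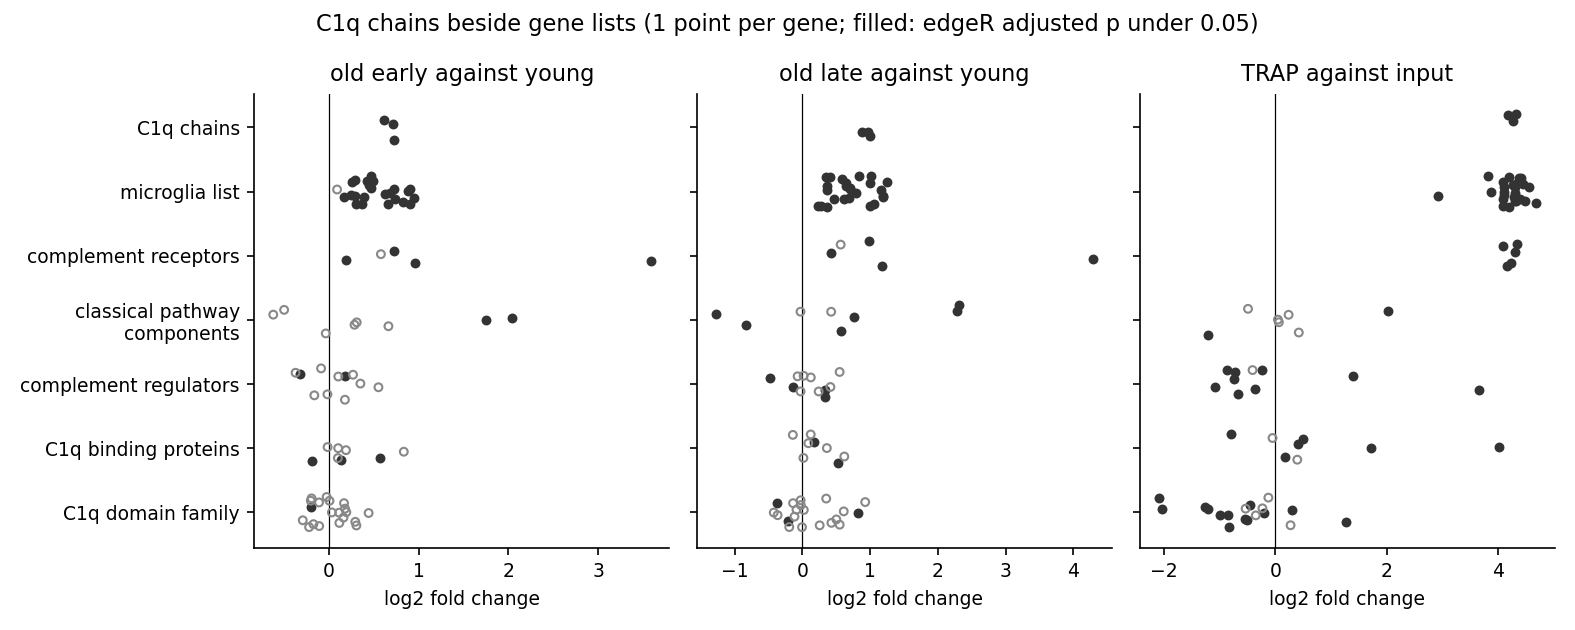
Log2 fold changes of the C1q chains and of the genes tested in 6 lists, in 3 comparisons, with 1 point per gene, filled where edgeR's adjusted p is under 0.05. The C1q chains lie among the microglia list in each panel, at 0.61 to 0.72, 0.88 to 1.00 and 4.19 to 4.32, while the medians of the C1q domain family lie at 0.02, -0.01 and -0.52, with called genes as high as Cbln1 at 0.82 in old late against young and Mmrn2 at 1.27 in TRAP.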

How the data were processed

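Per the file headers, the authors deposited 1 table of raw estimated counts per gene. They are estimated counts because 77.4% of nonzero values were not whole. Per the submitters' processing notes the build was mm10 and DESeq2 was used. The aligner, counting tool and strand handling are not given in the sources used here. Groups, sex and animal came from the labels.

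Estimated counts were rounded and tested in R 4.3.3 with edgeR 4.0.16 (low genes removed by filterByExpr at its minimum of 10 counts, TMM scaling, quasi-likelihood test, Benjamini-Hochberg over all genes, called under 0.05). The 29 inputs were fitted with group and sex, the 14 libraries of the 7 paired animals with fraction and sex, and the 22 early-induced inputs with age by sex. SE and 95% intervals come from the F statistic and its degrees of freedom. Levels on the log2 scale had 2 prior counts added. Chain ratios were compared by permutation tests, exact where a group had under 10 libraries and otherwise with 100000 resamples. The permutation tests between input groups, those relative to the microglia list included, had no term for sex, although the groups differ in their share of males. Lengths came from GENCODE. P-values measure the spread between these animals.

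An animal's TRAP and input libraries deviated together (r from 0.308 to 0.470 in 7 pairs, against a median of -0.085 between different animals), so the pairing by animal number holds. The 3 genes and all lists were chosen with earlier results of these data known. Lists held 150 genes, of which 149 were matched, 6 by identifier. Named pathway genes were calls with an average log2 CPM over 0, at most 6 per list and comparison, and the 8 genes most like C1q were taken by r. Results of 2 genes under these rules are not reported here. Receptors and partners whose levels are given without a call were named as background. Alternatives were other scalings (DESeq2's size factors, upper quartile, library size), no filter, DESeq2 1.42.0, limma 3.58.1 voom, other covariates and groups, females only, other list summaries and each library left out. Of the tests, edgeR's was checked on simulated data, for old late against young inputs and for TRAP against input. The simulated libraries were drawn without the pairing by animal.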

Additional observations from a re-analysis of the deposited data

Results flagged for a closer look

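Of 30 groups of values examined for the 3 genes and their ratios, 1 held a library far from the others, where chance alone gives about 1.5. The old early inputs were not examined in this way. In young input replicate 9, a female, the C1qa to C1qc ratio was 1.32, while the other 9 young inputs lay between 1.11 and 1.20. The gap to the nearest library was 0.553 of the range of the 10 libraries. Without it the C1qa to C1qc ratio of old early against young inputs was 0.13 higher on the log2 scale and passed the permutation test (adjusted p = 0.0122).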

How the results depend on the processing

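Of 603 alternative values of the chains' fold changes over 6 comparisons, 598 kept their direction and their side of the threshold, and the calls with age and in TRAP were all among them. The animal as replicate block gave 4.27 for C1qa, 4.19 for C1qb and 4.32 for C1qc in TRAP against input, with 9330 genes called in place of 8640, and changed no other call of the chains. The exceptions were C1qa in old late against old early with females only (0.36, edgeR adjusted p = 0.0418), C1qb there with DESeq2 (0.29), and 1 library left out each in C1qb there (range 0.24 to 0.35), in the age by sex term of C1qa (-0.19 to 0.0027) and in that of C1qb (-0.017 to 0.10).

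Genes called with females only were 1198 in old early against young, 2787 in old late against young and 182 in old late against old early, where DESeq2 called 58 and a fit of only the compared groups 0. Leaving out 1 library gave 0 to 164 genes there (164 without old early replicate 5), 17 to 32 for male against female and 0 to 453 for age by sex (453 without old early replicate 6). DESeq2 called 63 genes for male against female and 21 for age by sex, and early-induced groups alone gave 12 for male against female.

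Chain ratios with 1 library left out ranged from -0.016 to 0.033 (C1qa to C1qb) and 0.10 to 0.13 (C1qa to C1qc) in old early against young, 0.076 to 0.12 (C1qa to C1qc) and 0.10 to 0.15 (C1qb to C1qc) in old late against young, 0.082 to 0.13 (C1qb to C1qc) in old early against young, -0.036 to 0.012 (C1qa to C1qc) between the old groups and -0.15 to -0.13 (C1qb to C1qc) in TRAP. With females only, C1qa to C1qb was 0.064 and C1qb to C1qc 0.052 in old late against young, C1qb to C1qc 0.027 in old early against young, C1qa to C1qc 0.015 between the old groups, C1qb to C1qc -0.14 in TRAP (exact permutation, adjusted p = 0.188), and log2 TRAP to input ratios 4.28, 4.22 and 4.36 (exact permutation, adjusted p = 0.0625, the smallest 5 animals allow).

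Relative to the microglia list's median level, old early against young gave -0.063, -0.071 and -0.17 and old late against young 0.017, 0.046 and -0.079 for C1qa, C1qb and C1qc. C1qc in old early against young was 0.30 with the first 5 genes, 0.13 with the median of each gene's change, and 0.071 to 0.11 with 1 library left out. With females only, C1qb in old early against young was 0.12 and C1qa between the old groups 0.14. Enrichment relative to the first 5 genes was 0.13 for C1qa, 0.045 for C1qb and 0.18 for C1qc, relative to the median of each gene's ratio 0.015, -0.068 and 0.069, and that of C1qb to the whole list was -0.026 to 0.016 with 1 animal left out. The cause of these changes was not tested. Reads carry no molecular identifiers, whether the groups were sequenced together is not given in the sources used here, and only 2 males were in the late-induced group.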
